A study of Homo sapiens with 18 samples.

Results

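The genes of DNA replication described here are 52 of the 58884 gene identifiers in the deposited counts. They were taken from a list of genes for origin licensing, the replication fork, histone deposition and deoxynucleotide supply, and all 52 had enough counts to be tested. RNA came from T47D, a breast cancer line that expresses the estrogen receptor, exposed for 48 hours to niraparib, to olaparib (each at 10 μM) or to the solvent DMSO alone. Niraparib and olaparib are inhibitors of PARP1 and PARP2, enzymes that attach ADP-ribose to proteins at DNA breaks. The labels give the genotype of 9 libraries as WT (the line called T47D AAV) and of the other 9 as PARP1 KO (the line called T47D JL), which makes 6 groups of 3 libraries. Each genotype is therefore a single line, so a difference between genotypes cannot be told apart from a difference between lines, and P values measure the spread between these libraries. The study's methods describe 3 dishes for each condition, and the labels do not tie a library to a dish.

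Replication starts where the origin recognition complex (ORC) sits on DNA. In G1 phase CDC6 and CDT1 load the ring of MCM2 to MCM7, the helicase core, at such sites, and geminin (GMNN) later binds CDT1 and stops further loading. In S phase the kinase CDC7 with its activating subunit DBF4 phosphorylates the ring, CDC45 and the GINS complex join it, MCM10 helps it open, and the fork then moves with primase, the replicative polymerases, the sliding clamp PCNA, the clamp loader RFC and the single-strand binding protein RPA. Ribonucleotide reductase and thymidylate enzymes supply deoxynucleotides, CAF-1 and ASF1 place histones on the new strands, and UHRF1 brings maintenance methylation. Many of these genes are transcribed at the entry to S phase by E2F factors, whereas genes of G2 phase and mitosis are controlled through CHR elements. PARP1 itself acts at breaks and at unligated Okazaki fragments during replication.

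Library totals ran from 28890837 to 52251288 counts, and the 52 genes together took between 0.346% and 0.478% of them. PARP1 stood at 337 ± 26.95 CPM (counts scaled to a common library size with TMM; SD, n = 9) under the label WT and at 25.1 ± 1.38 CPM (n = 9) under the label PARP1 KO, with no overlap (exact permutation test, 2-sided, P = 4.1e-05, the smallest this design can give). All 8 luminal epithelial markers examined were present (medians from 161 CPM for ESR1 to 3600 CPM for KRT8), and of the 11 markers of fibroblasts, leukocytes and endothelium all but COL1A1 (median 106 CPM) had a median of 2 CPM or less or at most 3 counts in any library. Replicate 1 of WT DMSO differed most from the other libraries of its group, with a chi-square per gene of 19 and 17.5 against them, where they differed from each other by 3.28 and pairs within the other 5 groups by 3.13 to 18.3. It also had the smallest share of counts on these genes (0.346%, against 0.374% and 0.381%) and the largest mitochondrial share of its group (5.603%). For the 52 genes, the calls that change without it are given beside the comparisons that use it.

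Promoters are shown for the 6 genes that had the largest called changes with niraparib in WT cells (below) among those with a promoter in the table, 1 that fell (DBF4) and 5 that rose. They are the RefSeq sequences of GRCh38.p14 from 150 bases before to 30 after the start, written 5′ to 3′ on the strand of the gene: DBF4 (ENSG00000006634, chr7:87876343-87876522, plus strand), MCM10 (ENSG00000065328, chr10:13161408-13161587, plus strand), POLA1 (ENSG00000101868, chrX:24693768-24693947, plus strand), GINS3 (ENSG00000181938, chr16:58392321-58392500, plus strand), CDC6 (ENSG00000094804, chr17:40287729-40287908, plus strand) and CHAF1B (ENSG00000159259, chr21:36385242-36385421, plus strand). Capitals mark matches on either strand to an E2F word (TTTCCCGC, TTTCGCGC, TTTGCCGC or TTTGGCGC), to CCAAT or to the CHR word TTTGAA, none of which overlap here.
DBF4: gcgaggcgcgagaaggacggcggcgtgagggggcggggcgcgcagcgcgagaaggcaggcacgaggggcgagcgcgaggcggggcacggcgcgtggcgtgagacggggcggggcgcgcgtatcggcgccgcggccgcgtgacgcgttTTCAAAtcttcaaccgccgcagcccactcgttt
MCM10: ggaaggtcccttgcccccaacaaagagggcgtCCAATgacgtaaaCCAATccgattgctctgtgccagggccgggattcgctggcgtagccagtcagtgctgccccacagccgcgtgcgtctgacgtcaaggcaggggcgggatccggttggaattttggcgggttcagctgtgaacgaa
POLA1: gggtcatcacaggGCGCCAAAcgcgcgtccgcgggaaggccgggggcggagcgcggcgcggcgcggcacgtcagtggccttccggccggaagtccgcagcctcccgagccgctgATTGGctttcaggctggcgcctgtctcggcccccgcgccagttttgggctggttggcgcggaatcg
GINS3: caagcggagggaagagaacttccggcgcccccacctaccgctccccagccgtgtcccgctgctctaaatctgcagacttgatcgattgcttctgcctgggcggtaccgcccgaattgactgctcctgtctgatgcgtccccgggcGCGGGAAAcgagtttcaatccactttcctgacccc
CDC6: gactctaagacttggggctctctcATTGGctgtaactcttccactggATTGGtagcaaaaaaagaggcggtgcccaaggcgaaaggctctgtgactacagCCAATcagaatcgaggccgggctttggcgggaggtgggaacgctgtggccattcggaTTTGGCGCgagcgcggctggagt
CHAF1B: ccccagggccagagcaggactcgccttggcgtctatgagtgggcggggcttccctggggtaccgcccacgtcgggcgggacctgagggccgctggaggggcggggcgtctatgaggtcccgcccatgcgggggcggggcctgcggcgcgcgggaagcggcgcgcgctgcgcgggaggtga

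DBF4 held a CHR word on the reverse strand, from 3 bases before the start, and no E2F word or CCAAT. POLA1, GINS3 and CDC6 each held 1 E2F word, MCM10 held 2 CCAAT words, CDC6 held 3, POLA1 held 1 on the reverse strand, and CHAF1B held no match in its 300 bases. Over the 300 bases from 250 before to 50 after the start, 18 of the 46 members with a promoter in the table had an E2F word (39.1%), against 3.33% of the 27305 promoters of all genes. CCAAT was in 26 of the 46 (56.5%, against 35.7%), and the CHR word in 3 (6.52%, against 15.4%), namely DBF4, RRM1 and ASF1B. Among members split by response, E2F words were in 12 of 31 that rose with niraparib in WT cells, in 0 of 5 that fell and in 6 of 10 that did not pass the test. In a list of 20 genes of G2 phase and mitosis, of which 15 had a promoter in the table, 9 held the CHR word and 13 held CCAAT. MCM4, MCM5, GINS4, POLD3, RPA2 and RPA3 were not among the promoters used. Only the words listed were searched and not other forms of them, so a promoter without a match may still hold a related word. A match is a description of the letters and not a measured site.

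With niraparib in WT cells most of the replication genes rose and 1 of them, DBF4, fell by more than any rose. Of the 52, 36 rose (69.2%) and 5 fell (9.62%) when the adjusted P value had to lie under 0.05 (edgeR quasi-likelihood test, Benjamini-Hochberg over all genes tested), where 19.9% of the 22446 genes tested rose and 18.1% fell. A further criterion of more than 1.5-fold, a log2 fold change of 0.585, left 11 higher (21.2%) and 1 lower (1.92%), against 8.1% and 5.72% of all genes; genes past both criteria are called below. The median log2 fold change of the members was 0.41, beside -0.025 for all genes. Of the 22446 genes, 13526 had a mean of at least 1 CPM over the 18 libraries, and their median was -0.0066. The shares of all genes, here and below, include genes under that level. Shares among genes matched in level to the members were not computed. Summed over the 52 genes, the level was 3492, 3788 and 3839 CPM with DMSO, 4443, 4433 and 4565 CPM with niraparib and 4124, 4242 and 4084 CPM with olaparib. The niraparib libraries lay above all others, and the olaparib libraries lay between. UHRF1 was the called gene nearest the limit (log2 fold change 0.59), and RPA2 (0.57), CDT1 (0.56), RFC3 (0.56) and POLD3 (0.56) lay just under it. In bulk RNA a change in the share of cells in a phase and a change in RNA per cell cannot be told apart.

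Fewer of the genes passed the test with olaparib at the same dose. In WT cells 28 rose (53.8%) and 1 fell (1.92%), where 11.2% and 7.77% of all genes did, and 4 were called higher (7.69%) and 0 lower, against 2.06% and 1.98%. The median was 0.17, beside -0.017 for all genes. Niraparib and olaparib were compared with the same 3 DMSO libraries, so their values are set side by side and not counted as separate evidence. Between the drugs themselves, 23 members were higher with niraparib (44.2%) and 11 lower (21.2%), where 16.1% and 16.2% of all genes were. Only MCM5, GINS4 and POLA1 were called higher (5.77%, against 5.62%) and only DBF4 lower (1.92%, against 3.33%), so the share called was close to that of all genes.

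**Figure D1:**
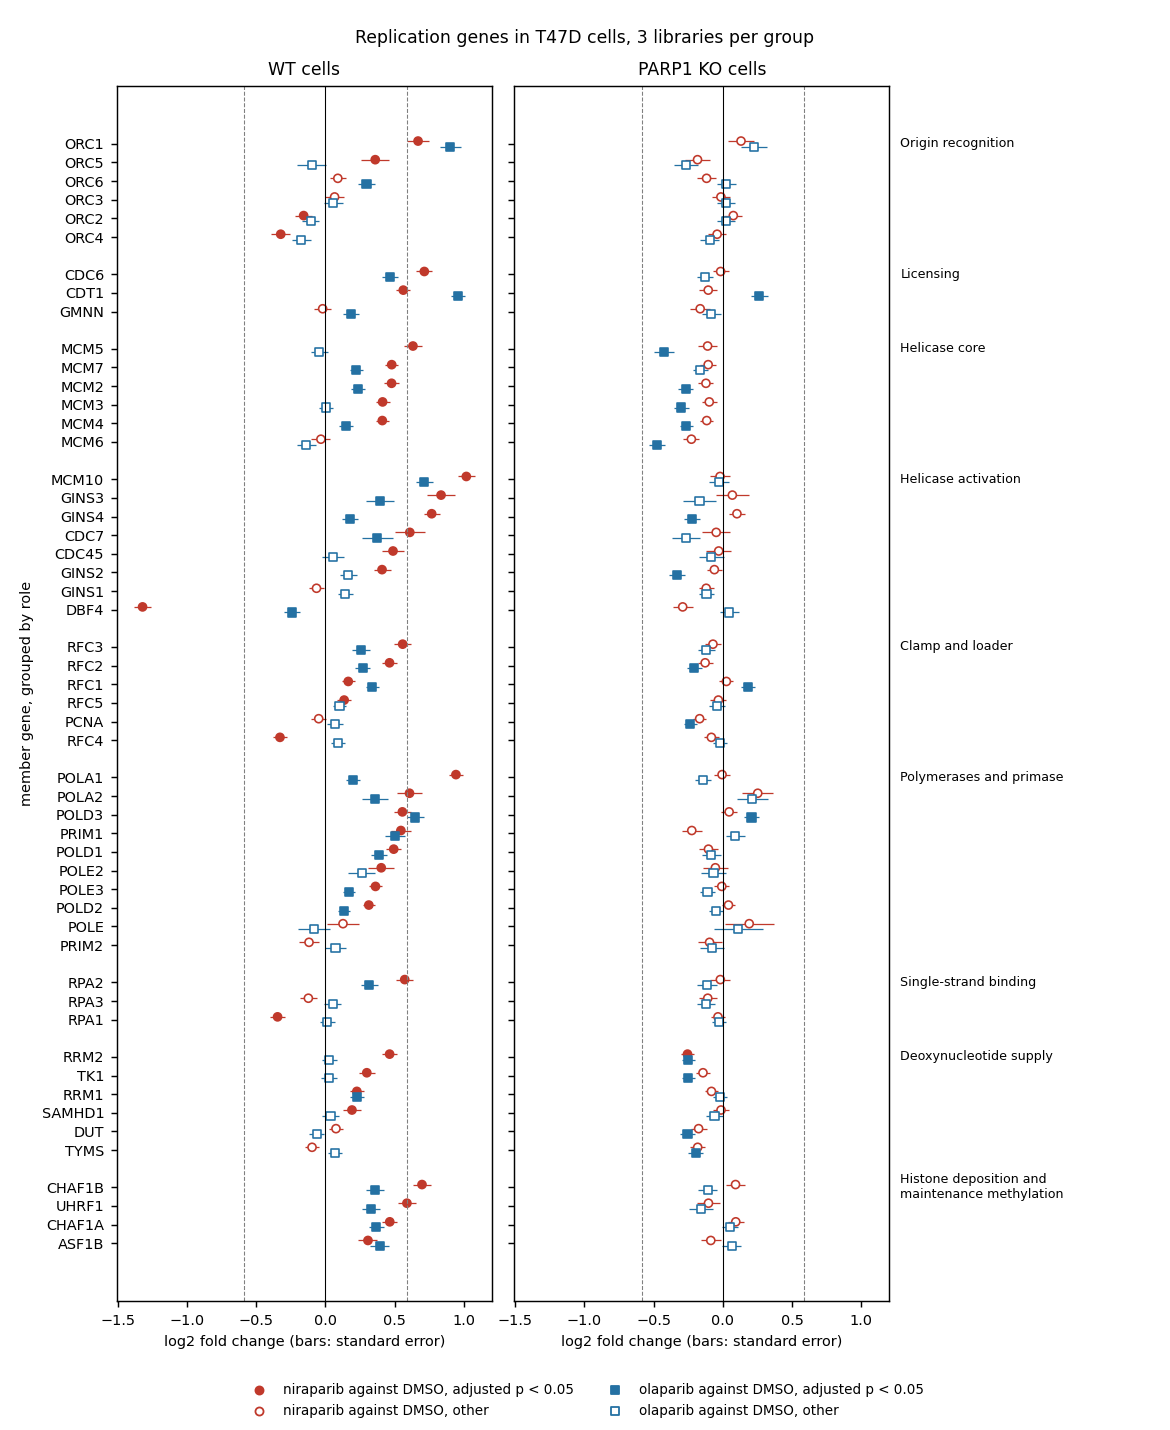
Log2 fold change (x axis) of each of the 52 genes (y axis, grouped by role) with niraparib or olaparib against DMSO, in WT cells on the left and PARP1 KO cells on the right. Points are fitted values from 3 libraries per group, bars are standard errors, filled points passed the test and dashed lines mark 1.5-fold. In WT cells most points lie right of 0 and DBF4 lies at -1.32 with niraparib, and in PARP1 KO cells all points lie within 1.5-fold.

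Among the 6 subunits of ORC, which marks origins, ORC1 and ORC5 rose with niraparib, ORC2 and ORC4 fell, and ORC3 (0.066) and ORC6 (0.089) did not pass the test. ORC1, the subunit whose level follows the cell cycle, was at 10.1, 10.1 and 9.52 CPM with DMSO, 15.9, 15.6 and 15.8 CPM with niraparib and 18.9, 18.3 and 18.03 CPM with olaparib. Every niraparib library lay above the DMSO libraries and every olaparib library lay above those. ORC1 had a log2 fold change of 0.67 ± 0.077 (adjusted P = 3.58e-07) with niraparib and 0.90 ± 0.077 (adjusted P = 4.58e-08) with olaparib, and the difference between the drugs passed the test (-0.23, adjusted P = 0.0195). ORC4 fell by 0.32 on the log2 scale with niraparib (adjusted P = 0.000692) and ORC2 by 0.16 (adjusted P = 0.0476). ORC5 rose by 0.36 with niraparib and was at -0.10 with olaparib. ORC6 rose with olaparib (0.30).

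With niraparib the loaders CDC6 and CDT1 rose and their inhibitor GMNN did not pass the test, and with olaparib all 3 rose. CDC6, the ATPase that brings the helicase to ORC, was at 59.6, 66.9 and 68.5 CPM with DMSO, 106, 103 and 111 CPM with niraparib and 87.03, 95.3 and 86.4 CPM with olaparib. Niraparib libraries were the highest and DMSO libraries the lowest, with no overlap among the groups. Its log2 fold change was 0.71 ± 0.057 (adjusted P = 1.59e-09) with niraparib and 0.46 ± 0.057 (adjusted P = 5.46e-06) with olaparib. CDT1, the partner of CDC6 in loading, was at 60.5, 65.1 and 64.3 CPM with DMSO, 91.9, 92.4 and 96.2 CPM with niraparib and 127, 118 and 123 CPM with olaparib. Here the order of the drugs was the other way round, with all olaparib libraries above all niraparib libraries. CDT1 had a log2 fold change of 0.56 ± 0.050 (adjusted P = 6.77e-09) with niraparib and 0.95 ± 0.050 (adjusted P = 2.89e-11) with olaparib, and was 0.39 lower with niraparib than with olaparib (adjusted P = 1.62e-06). GMNN, the CDT1 inhibitor that accumulates in S and G2 phase, was at -0.020 with niraparib (adjusted P = 0.834) and rose by 0.19 with olaparib (adjusted P = 0.0337). Without replicate 1 of WT DMSO the rise of GMNN with olaparib was 0.14 and did not pass the test (adjusted P = 0.13).

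The ratio of CDT1 to GMNN within a library does not depend on scaling between libraries. Per kilobase of exon, its log2 value was 0.77, 0.69 and 0.73 in the WT DMSO libraries, 1.30, 1.31 and 1.31 with niraparib and 1.58, 1.42 and 1.48 with olaparib. Both drug groups lay above DMSO without overlap, and olaparib above niraparib. In PARP1 KO cells the same ratio was 0.82, 0.81 and 0.40 with DMSO, 0.68, 0.66 and 0.85 with niraparib and 1.09, 1.03 and 0.94 with olaparib. There the niraparib libraries overlapped the DMSO libraries, and the olaparib libraries were above both groups but below every drug-treated WT library. Replicate 3 of PARP1 KO DMSO was the lowest of all 18 libraries.

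**Figure D2:**
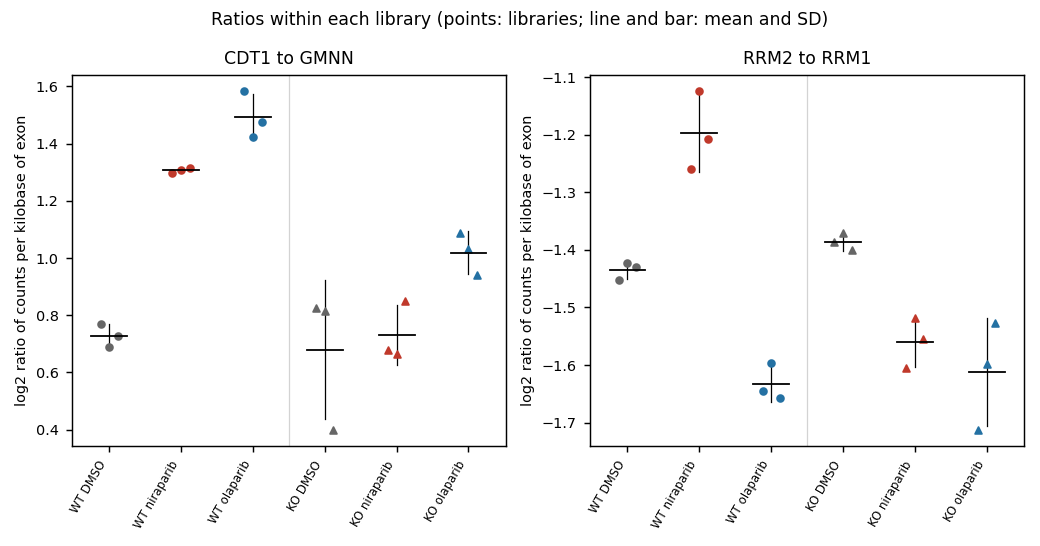
Log2 ratio of counts per kilobase of exon (y axes) of CDT1 to GMNN (left) and RRM2 to RRM1 (right) in each of 18 libraries, by group (x axes). Points are libraries, horizontal lines means and bars SD (n = 3). Means of the CDT1 to GMNN ratio were 0.73, 1.31 and 1.49 in WT cells with DMSO, niraparib and olaparib, and 0.68, 0.73 and 1.02 in PARP1 KO cells.

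Of the 6 subunits of the helicase core, 5 rose with niraparib and MCM6 did not (-0.033, adjusted P = 0.756). MCM5 was at 33.98, 38.3 and 40.3 CPM with DMSO, 57.3, 58.8 and 58.8 CPM with niraparib and 34.3, 38.3 and 36.5 CPM with olaparib. Its niraparib libraries stood above the rest, and its olaparib and DMSO libraries overlapped. MCM5 had a log2 fold change of 0.63 ± 0.062 (adjusted P = 3.7e-08) with niraparib and of -0.044 ± 0.064 (adjusted P = 0.698) with olaparib, and it was called between the drugs (0.68 ± 0.063, adjusted P = 2.87e-08). MCM2 was at 102, 112 and 121 CPM with DMSO, 157, 154 and 157 CPM with niraparib and 131, 134 and 130.5 CPM with olaparib. MCM7 was at 146, 158 and 153 CPM with DMSO, 209.8, 215 and 211 CPM with niraparib and 181, 177 and 173 CPM with olaparib. In both of these, niraparib libraries were above olaparib libraries, which were above DMSO. The log2 fold changes with niraparib were 0.48 for MCM2, 0.48 for MCM7, 0.41 for MCM3 and 0.41 for MCM4. With olaparib, MCM2, MCM4 and MCM7 rose by 0.15 to 0.24 while MCM3 (0.0041) and MCM6 (-0.14) did not pass the test.

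Of the 8 genes that activate the helicase 6 rose with niraparib and 1 fell, and they held the largest changes in either direction. MCM10, which binds the assembled helicase as it opens the origin, was at 27.8, 33.2 and 32.3 CPM with DMSO, 64.3, 62.2 and 62.98 CPM with niraparib and 50.5, 51.8 and 50.6 CPM with olaparib. The groups did not overlap, and its log2 fold change was 1.02 ± 0.061 (adjusted P = 1.75e-11) with niraparib and 0.71 ± 0.062 (adjusted P = 5.24e-08) with olaparib. DBF4, the activating subunit of the CDC7 kinase, was at 44.3, 40.1 and 43 CPM with DMSO, 17.3, 17.1 and 16.6 CPM with niraparib and 36.96, 35.5 and 34.9 CPM with olaparib. Every niraparib library lay below every olaparib library, and these lay below every DMSO library. DBF4 fell by 1.32 on the log2 scale with niraparib (SE 0.061, adjusted P = 2.66e-13) and by 0.24 with olaparib (SE 0.059, adjusted P = 0.00563). CDC7, its catalytic partner, went the other way and was at 6.93, 9.402 and 7.38 CPM with DMSO, 11.7, 11.7 and 13.1 CPM with niraparib and 9.77, 11.1 and 10.03 CPM with olaparib. Olaparib libraries of CDC7 lay between the other groups with no overlap, and its log2 fold change was 0.61 ± 0.11 (adjusted P = 0.000109) with niraparib and 0.37 ± 0.11 (adjusted P = 0.0212) with olaparib.

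GINS is a ring of 4 subunits that joins CDC45 and the MCM ring, and its genes did not move together. GINS3 was at 7.07, 9.32 and 9.32 CPM with DMSO, 15.02, 15.9 and 15.2 CPM with niraparib and 11.9, 10.6 and 11.3 CPM with olaparib. GINS4 was at 38.6, 45.3 and 43.2 CPM with DMSO, 71.1, 70.8 and 74.9 CPM with niraparib and 47.6, 48.02 and 47.9 CPM with olaparib. In both the niraparib libraries were highest and the olaparib libraries lay above DMSO. GINS3 had a log2 fold change of 0.83 ± 0.10 (adjusted P = 5.99e-07) with niraparib and 0.39 ± 0.10 (adjusted P = 0.0088) with olaparib. GINS4 had 0.77 ± 0.058 (adjusted P = 5.99e-10) with niraparib and 0.17 ± 0.059 (adjusted P = 0.0396) with olaparib, and was called between the drugs (0.59, adjusted P = 5.67e-08). GINS2 rose by 0.41 with niraparib, and GINS1 did not pass the test (-0.065, adjusted P = 0.409). CDC45 rose by 0.49 with niraparib and was at 0.054 with olaparib (adjusted P = 0.701).

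**Figure D3:**
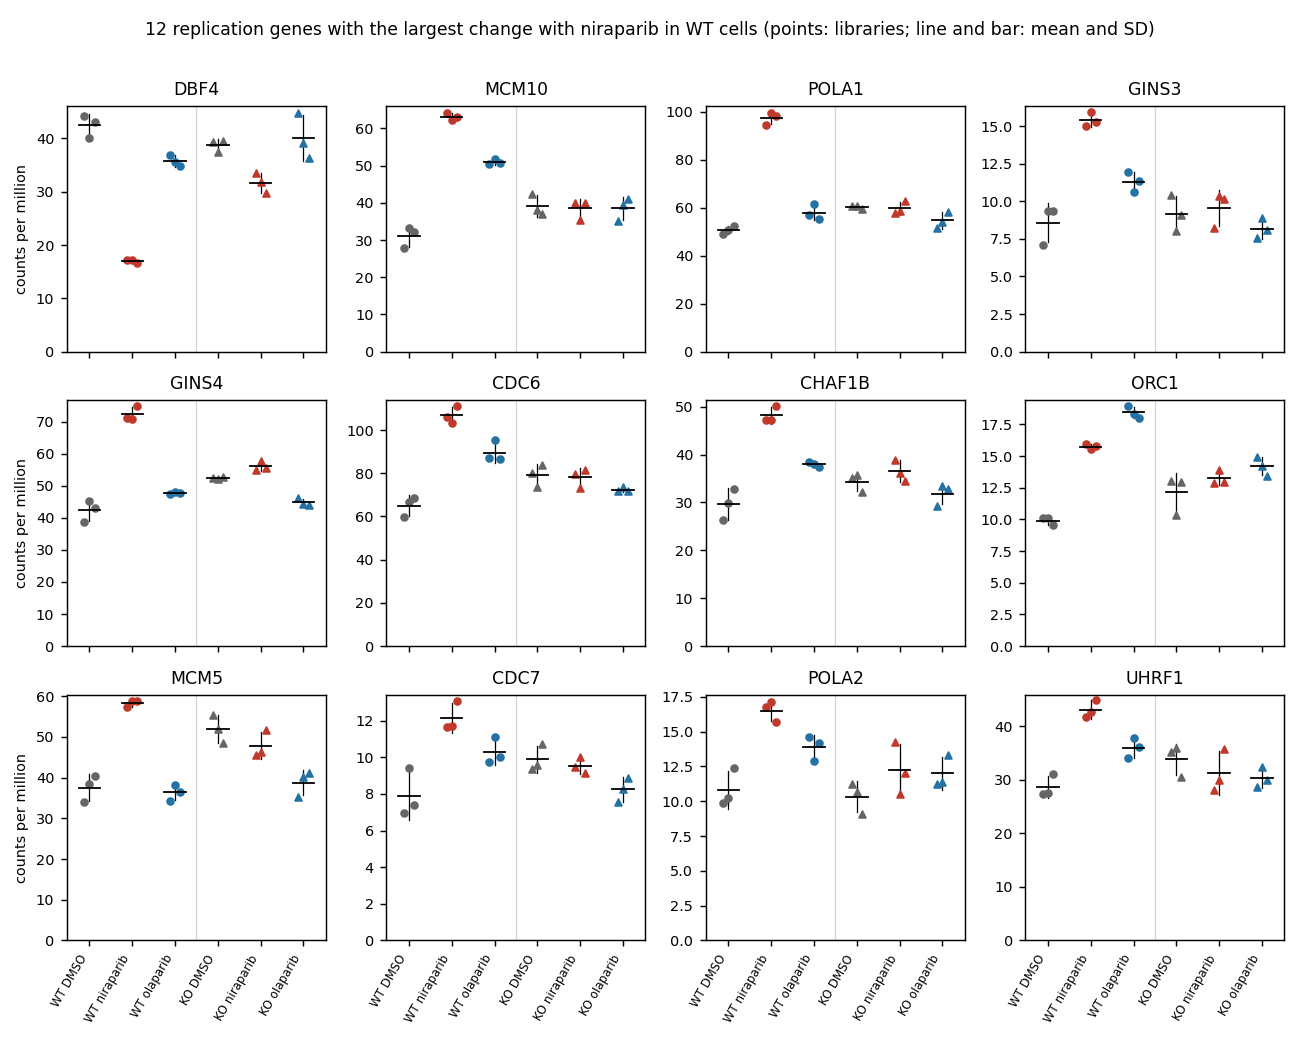
Level in CPM (y axes, from 0) of the 12 genes with the largest absolute log2 fold change with niraparib in WT cells, in each of 18 libraries by group (x axes). Points are libraries (circles WT, triangles PARP1 KO), horizontal lines means and bars SD (n = 3). DBF4 stands at 17.3, 17.1 and 16.6 CPM with niraparib in WT cells and the other 11 genes stand above their WT DMSO libraries there.

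Of the 10 genes of polymerases and primase 8 rose with niraparib and 0 fell. Polymerase alpha with primase lays the first stretch of each new strand. POLA1, its catalytic subunit, was at 48.9, 50.7 and 52.3 CPM with DMSO, 94.4, 99.3 and 98.3 CPM with niraparib and 56.9, 61.6 and 55.4 CPM with olaparib. The niraparib libraries stood apart from all others, and olaparib libraries were above DMSO by a smaller margin. POLA1 had a log2 fold change of 0.94 ± 0.052 (adjusted P = 4.65e-12) with niraparib and 0.20 ± 0.053 (adjusted P = 0.0102) with olaparib, and was called between the drugs (0.74 ± 0.052, adjusted P = 4.62e-10). POLA2, its accessory subunit, was at 9.87, 10.2 and 12.4 CPM with DMSO, 16.8, 17.1 and 15.7 CPM with niraparib and 14.6, 12.9 and 14.2 CPM with olaparib. It had a log2 fold change of 0.61 ± 0.092 (adjusted P = 1.39e-05) with niraparib and 0.36 ± 0.094 (adjusted P = 0.00894) with olaparib, and 36.1% of its exon bases lie under another gene of the same strand, where reads were not counted. PRIM1, the catalytic primase subunit, was at 19.7, 23.1 and 23.4 CPM with DMSO, 32.3, 31.8 and 32.8 CPM with niraparib and 30.97, 33.3 and 29.4 CPM with olaparib. Both drugs raised PRIM1 to overlapping levels, by 0.54 with niraparib and 0.50 with olaparib. PRIM2, the other primase subunit, did not pass the test with either drug (-0.12 and 0.072).

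Polymerase delta copies the lagging strand. POLD3, an accessory subunit, was at 41.8, 43.5 and 47.4 CPM with DMSO, 66.6, 64.2 and 64.4 CPM with niraparib and 63.99, 72.4 and 71.5 CPM with olaparib. Its drug libraries overlapped and all lay above DMSO, with a log2 fold change of 0.56 ± 0.059 (adjusted P = 1.11e-07) with niraparib and 0.65 ± 0.059 (adjusted P = 1.08e-07) with olaparib, of which the latter was called. POLD1, the catalytic subunit, was at 33.01, 30.9 and 31.2 CPM with DMSO, 44.5, 44.9 and 44.5 CPM with niraparib and 42.1, 39.6 and 42.2 CPM with olaparib. It rose by 0.49 with niraparib and 0.39 with olaparib. POLD2 rose by 0.31 and 0.14. In polymerase epsilon, which copies the leading strand, POLE2 and POLE3 rose with niraparib (0.40 and 0.36), and the catalytic subunit POLE did not pass the test with either drug (0.13 with niraparib, adjusted P = 0.457). Libraries of POLE were uneven within groups, at 144, 120 and 120 CPM with DMSO and 129, 164.5 and 125 CPM with niraparib.

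PCNA, the sliding clamp, did not pass the test with niraparib (-0.049, adjusted P = 0.546) or olaparib (0.071), although RFC subunits that load it moved in both directions. RFC3 was at 45.1, 54.5 and 53.9 CPM with DMSO, 74.4, 75.8 and 76.2 CPM with niraparib and 60.1, 65.2 and 58.3 CPM with olaparib. RFC2 was at 66.4, 74.8 and 77.9 CPM with DMSO, 101, 98.5 and 103 CPM with niraparib and 88.6, 89.9 and 85.03 CPM with olaparib. The groups of each did not overlap, and with niraparib RFC3 rose by 0.56 and RFC2 by 0.46. RFC4, of the same pentamer, was at 131, 136 and 137 CPM with DMSO, 109.5, 106 and 107 CPM with niraparib and 139, 153 and 137 CPM with olaparib. Its niraparib libraries were all below the others and it fell by 0.33 on the log2 scale (adjusted P = 1.26e-05), while with olaparib it was at 0.091 (adjusted P = 0.225). RFC1 rose with both drugs (0.16 and 0.34) and RFC5 with niraparib (0.13).

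RPA binds exposed single strands as a trimer. Of its 3 genes, 1 rose with niraparib, 1 fell and 1 did not pass the test. RPA2 was at 29.01, 33.2 and 33.2 CPM with DMSO, 45.5, 46.8 and 50.1 CPM with niraparib and 39.1, 41.3 and 38.5 CPM with olaparib. It rose by 0.57 with niraparib (adjusted P = 1.71e-07) and 0.32 with olaparib. RPA1, the largest subunit, was at 224, 248 and 250.4 CPM with DMSO, 201, 176 and 191 CPM with niraparib and 238, 250 and 239 CPM with olaparib. Its niraparib libraries were below all others and it fell by 0.35 (adjusted P = 2.5e-05), and with olaparib it was at 0.013. RPA3 was at -0.12 with niraparib (adjusted P = 0.12), and without replicate 1 of WT DMSO it passed the test as a fall of 0.18.

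Of the 6 genes of deoxynucleotide supply, 4 rose with niraparib, all by less than 1.5-fold, and 1 with olaparib. RRM2, the S phase subunit of ribonucleotide reductase, was at 127, 145 and 141 CPM with DMSO, 183, 192 and 196 CPM with niraparib and 136, 147 and 137 CPM with olaparib. Its niraparib libraries were the highest and the other groups overlapped, with a log2 fold change of 0.46 ± 0.052 (adjusted P = 2.6e-07) with niraparib and 0.027 ± 0.053 (adjusted P = 0.783) with olaparib. RRM1, the large subunit, rose by 0.23 with niraparib and 0.23 with olaparib. The log2 ratio of RRM2 to RRM1 per kilobase was -1.45, -1.42 and -1.43 with DMSO, -1.26, -1.12 and -1.21 with niraparib and -1.65, -1.60 and -1.66 with olaparib. The ratio lay above DMSO with niraparib and below it with olaparib, without overlap. In PARP1 KO cells it was between -1.40 and -1.37 with DMSO, between -1.60 and -1.52 with niraparib and between -1.71 and -1.53 with olaparib, below DMSO with either drug. TK1, which salvages thymidine, rose by 0.30 with niraparib, and SAMHD1, which degrades deoxynucleotides, by 0.19. TYMS, which makes thymidylate, and DUT, which removes dUTP, did not pass the test (-0.097 and 0.076).

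All 4 genes of histone deposition and maintenance methylation rose with niraparib and with olaparib. CHAF1B, a subunit of the chaperone CAF-1, was at 26.2, 29.9 and 32.9 CPM with DMSO, 47.2, 47.2 and 50.2 CPM with niraparib and 38.5, 38.1 and 37.3 CPM with olaparib. UHRF1, which recognizes hemimethylated DNA, was at 27.4, 27.5 and 31.1 CPM with DMSO, 41.7, 42.7 and 44.99 CPM with niraparib and 34.03, 37.9 and 36.1 CPM with olaparib. In both the order was niraparib, olaparib, DMSO from high to low with no overlap. CHAF1B had a log2 fold change of 0.70 ± 0.067 (adjusted P = 2.45e-08) with niraparib and 0.36 ± 0.068 (adjusted P = 0.000615) with olaparib. UHRF1 had 0.59 ± 0.064 (adjusted P = 1.37e-07) and 0.33 ± 0.064 (adjusted P = 0.000782). CHAF1A, the large CAF-1 subunit, rose by 0.46 and 0.37, and ASF1B, which hands histones to CAF-1, by 0.31 and 0.39.

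Without replicate 1 of WT DMSO, CDC7, MCM5, POLA2 and UHRF1 fell short of 1.5-fold with niraparib and 8 members remained called, namely ORC1, CDC6, MCM10, GINS3, GINS4, DBF4, POLA1 and CHAF1B. The 4 genes called with olaparib (ORC1, CDT1, MCM10 and POLD3) were called without it too. Without that library ORC2, RFC5 and SAMHD1 no longer passed the test with niraparib and RPA3 did, with a fall of 0.18 (adjusted P = 0.0188). With olaparib GMNN, MCM4, GINS4, CDC7 and POLD2 no longer passed it, while ORC4 (-0.22) and MCM6 (-0.22) did.

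Levels of the genes were spread over a wide range. Per kilobase of exon, PCNA (120.1 ± 9.39 CPM per kilobase; SD, n = 3) and TK1 (109.9 ± 11.6) were the highest in WT cells with DMSO and did not differ beyond their spread, followed by POLE3 (60.2 ± 1.95). CDC7 (2.197 ± 0.365) and GINS3 (1.68 ± 0.255) were the lowest over bases not shared with another gene of the same strand. The subunits of the MCM ring ran from 5.16 ± 0.445 for MCM5 to 41.2 ± 3.01 for MCM3, and those of GINS from 1.68 ± 0.255 for GINS3 to 25.9 ± 2.48 for GINS2. Within GINS the called GINS3 and GINS4 (7.78 ± 0.621) were the less abundant pair, below GINS1 (18.9 ± 1.32) and GINS2.

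Other genes of the same processes, taken from lists, were compared in the same fit. Of 26 other fork and origin genes, 16 rose with niraparib (61.5%, against 19.9% of all genes) and 0 fell, 5 were called higher (19.2%, against 8.1%), and the median log2 fold change was 0.26. The largest were DTL (1.48), the receptor of the ligase that destroys CDT1, CLSPN (1.09), a checkpoint mediator at the fork, CHTF8 (0.66), a subunit of an alternative clamp loader, and TIPIN (0.64), of the fork protection complex. CHTF8 was at a low level, 1.6, 1.7 and 1.3 CPM with DMSO and 2.3, 2.8 and 2.3 CPM with niraparib. Without replicate 1 of WT DMSO, 15 rose and 4 were called, and TIPIN stood at 0.49, short of 1.5-fold (adjusted P = 6.85e-05). With olaparib 8 rose (30.8%, against 11.2%) and 1 fell, and DTL was called (1.04). Of 17 other nucleotide genes, 8 rose (47.1%, against 19.9%) and 2 fell (11.8%, against 18.1%) with niraparib (median 0.15), and the share called higher was below that of all genes (5.88%, against 8.1%), with RRM2B (1.08), the ribonucleotide reductase subunit used outside S phase, called and SHMT2 (0.45) and CTPS1 (0.38) among the others that rose. Of 16 other genes of histone chaperones and chromatin maintenance, 5 rose (31.2%, against 19.9%) and 4 fell (25%, against 18.1%), and the median was 0.083. Their shares called higher (12.5%, against 8.1%) and lower (6.25%, against 5.72%) were close to those of all genes, with HELLS (0.68) and DNMT1 (0.60), the methyltransferase that UHRF1 guides, called higher and DAXX (-0.70), a chaperone of histone H3.3, called lower.

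Genes of G2 phase and mitosis moved with the opposite sign. Of a list of 20, 15 were called lower with niraparib in WT cells (75%, against 5.72% of all genes). All 20 fell (100%, against 18.1%), with a median of -1.30, led by KIF20A (-3.00), PLK1 (-2.46), CCNB1 (-2.19) and BUB1 (-1.89). Their summed level was 5933, 6451 and 6356 CPM with DMSO, 2811, 2648 and 2718 CPM with niraparib and 5202, 5219 and 5167 CPM with olaparib. None of the 20 genes was at 0 in any library. With olaparib 13 fell (65%, against 7.77% of all genes) and 4 were called (20%, against 1.98%), with a median of -0.32. DBF4, RPA1, RFC4, ORC4 and ORC2 were the members that fell with niraparib as this list did. The part of cell cycle phase in the members' result was not tested.

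**Figure D4:**
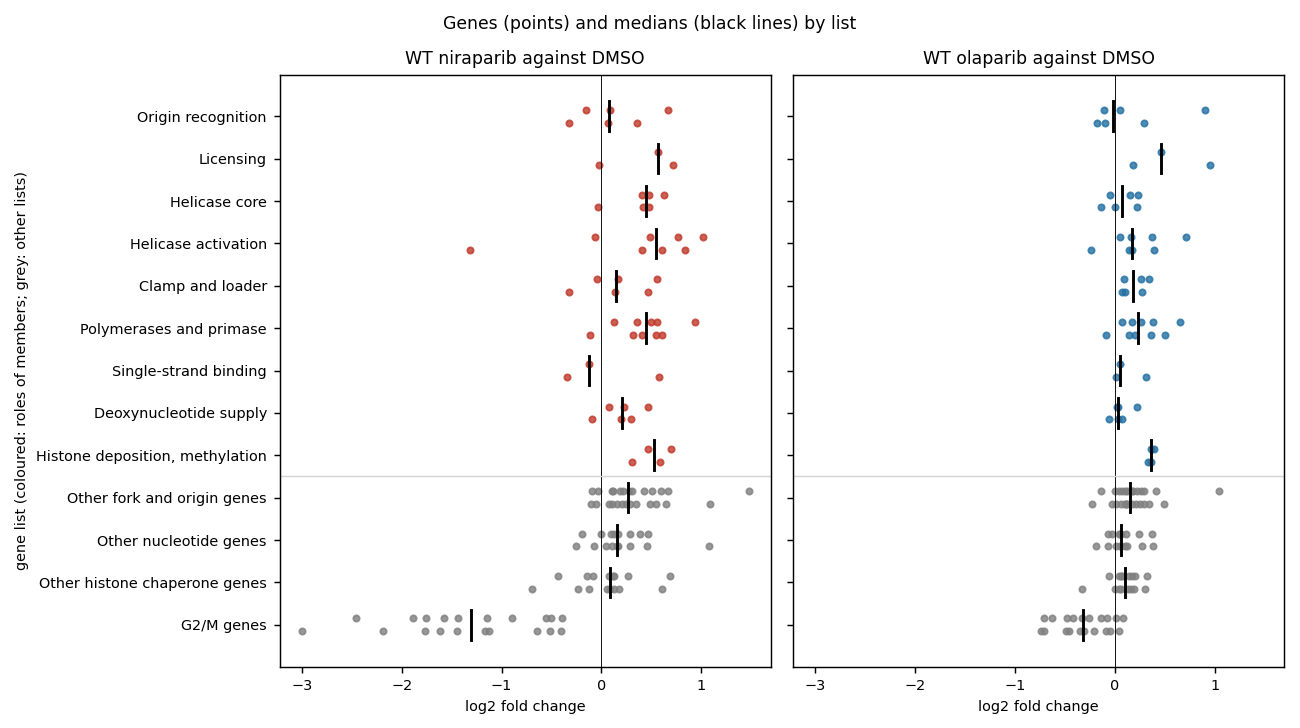
Log2 fold change (x axes) of each gene (points) in WT cells with niraparib (left) or olaparib (right) against DMSO, by gene list (y axis), with members of the 9 roles coloured and 4 other lists in grey. Black lines are medians. With niraparib the median is 0.45 for the helicase core, 0.26 for other fork and origin genes and -1.30 for G2/M genes, and with olaparib 0.076, 0.15 and -0.32.

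In PARP1 KO cells almost none of the genes passed the test with niraparib. With niraparib 0 of the 52 were called in either direction, against 0.0136% of 22037 genes called higher and 0% called lower. At the adjusted threshold of 0.05, 0 rose and 1 fell, RRM2, where 0.059% and 0.0499% of all genes did, and at an unadjusted P value below 0.05 (edgeR) 14 were lower and 1 higher (POLA2), where 4.65% and 4.49% of all genes were. The median log2 fold change was -0.077, beside 0.0050 for all genes. RRM2 was at 149, 155 and 156 CPM with DMSO, 127, 132 and 126 CPM with niraparib and 126, 131 and 130.4 CPM with olaparib. Its drug libraries were all below DMSO, by 0.26 on the log2 scale with niraparib (SE 0.048, adjusted P = 0.0316) and 0.25 with olaparib (adjusted P = 0.00253). RRM2 no longer passed the test with niraparib when any of the 6 libraries was left out. None of the 20 G2/M genes passed the test with niraparib in PARP1 KO cells, and their median was -0.13.

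Olaparib in PARP1 KO cells lowered more of them. A fall passed the test in 13 (25%), where 3.87% of all genes fell, and a rise in 3 (5.77%), where 4.42% rose. None was past 1.5-fold, against 0.467% higher and 0.336% lower of all genes, and the median was -0.10. Those that fell were 5 of the 6 helicase core genes (MCM2, MCM3, MCM4, MCM5 and MCM6), GINS2, GINS4, PCNA, RFC2, TK1, RRM2, TYMS and DUT. MCM6 was at 76.5, 76.4 and 80.3 CPM with DMSO, 61.99, 68.5 and 67.9 CPM with niraparib and 53.5, 56.8 and 57.5 CPM with olaparib. All olaparib libraries lay below all DMSO libraries, and it fell by 0.48 (SE 0.058, adjusted P = 4.2e-05). CDT1 (0.26), POLD3 (0.21) and RFC1 (0.18) rose. Without replicate 3 of PARP1 KO DMSO, 10 members passed the test in place of 16.

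Between the drugs in PARP1 KO cells, 6 members were higher with niraparib (11.5%, against 4.27% of all genes) and 3 lower (5.77%, against 5.73%), and none was past 1.5-fold (0.622% and 0.449% of all genes were). The higher were MCM3, MCM4, MCM5, MCM6, GINS2 and GINS4, by 0.15 to 0.33, and the lower were CDT1 (-0.37), DBF4 (-0.34) and PRIM1 (-0.31). In WT cells 7 of these genes passed the test between the drugs in the same direction, with 0.41 for MCM3, 0.26 for MCM4, 0.68 for MCM5, 0.24 for GINS2, 0.59 for GINS4, -0.39 for CDT1 and -1.08 for DBF4. MCM6 (0.11, adjusted P = 0.282) and PRIM1 (0.044, adjusted P = 0.705) did not pass it there.

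The response to niraparib differed between the lines for most members when the difference itself was tested over all 18 libraries. The interaction (response in PARP1 KO minus response in WT, log2) was negative and past the test in 33 members (63.5%), where 12.5% of 24675 genes were, and positive in 4 (7.69%), where 10.4% were. Past 1.5-fold it was negative in 18 (34.6%, against 5.2%) and positive in DBF4 alone (1.92%, against 3.68%). The median was -0.46, beside 0.033 for all genes. The DMSO libraries enter both this contrast and the responses above.

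DBF4 was at 39.4, 37.5 and 39.5 CPM with DMSO, 33.4, 31.9 and 29.7 CPM with niraparib and 44.7, 39.2 and 36.4 CPM with olaparib in PARP1 KO cells. Niraparib libraries were below DMSO there too, by a log2 fold change of -0.29 ± 0.073 (adjusted P = 0.136) that did not pass the test, and the interaction was 1.03 ± 0.096 (adjusted P = 2.19e-10). MCM10 was at 42.5, 38.1 and 37.1 CPM with DMSO, 40.05, 35.4 and 40 CPM with niraparib and 35.2, 39.3 and 41.1 CPM with olaparib in those cells. All 3 groups overlapped, and the interaction of MCM10 was -1.04 ± 0.096 (adjusted P = 1.47e-10). POLA1 was at 60.6, 60.9 and 59.5 CPM with DMSO, 58, 58.6 and 62.9 CPM with niraparib and 51.6, 54.1 and 58.4 CPM with olaparib. Its niraparib libraries overlapped DMSO, with an interaction of -0.95 ± 0.078 (adjusted P = 1.12e-11). GINS4 was at 52.3, 52.1 and 52.9 CPM with DMSO, 54.9, 57.8 and 55.4 CPM with niraparib and 46.2, 44.4 and 44.1 CPM with olaparib. Niraparib libraries lay above DMSO by 0.10 and olaparib libraries below it, with an interaction of -0.67 ± 0.078 (adjusted P = 2.58e-08) for niraparib. GINS3 was at 10.4, 8.03 and 9.09 CPM with DMSO, 8.20, 10.3 and 10.2 CPM with niraparib and 7.54, 8.92 and 8.07 CPM with olaparib. Its groups overlapped and the interaction was -0.77 ± 0.15 (adjusted P = 0.000215). CDC7 was at 9.34, 9.597 and 10.7 CPM with DMSO, 9.46, 9.996 and 9.16 CPM with niraparib and 7.56, 8.297 and 8.89 CPM with olaparib. The niraparib and DMSO libraries overlapped and the olaparib libraries were lower, with an interaction of -0.66 ± 0.15 (adjusted P = 0.000842).

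Of the licensing genes, CDC6 was at 80.3, 73.6 and 83.8 CPM with DMSO, 79.7, 73.2 and 81.5 CPM with niraparib and 71.9, 73.6 and 71.9 CPM with olaparib. Its interaction with niraparib was -0.74 ± 0.083 (adjusted P = 1.16e-08). CDT1 was at 74.8, 70.4 and 64.7 CPM with DMSO, 62.2, 63.05 and 68.8 CPM with niraparib and 89.7, 80.8 and 81.2 CPM with olaparib. Olaparib libraries of CDT1 were above DMSO in this genotype as well, niraparib libraries were not, and the interaction with niraparib was -0.67 ± 0.081 (adjusted P = 4.8e-08). In the helicase core, MCM5 was at 55.4, 51.9 and 48.5 CPM with DMSO, 45.7, 46.2 and 51.8 CPM with niraparib and 35.2, 40.2 and 41.05 CPM with olaparib. MCM2 was at 153, 148 and 139.6 CPM with DMSO, 130, 133 and 139.7 CPM with niraparib and 114, 125 and 127 CPM with olaparib. MCM7 was at 177, 165 and 167 CPM with DMSO, 149.9, 151 and 169.5 CPM with niraparib and 145, 152 and 158 CPM with olaparib. In each of these 3 the niraparib libraries overlapped DMSO and the olaparib libraries were below it. The interactions with niraparib were -0.75 for MCM5, -0.61 for MCM2 and -0.59 for MCM7, with adjusted P values of 1.69e-07, 1.1e-07 and 6.11e-08 (edgeR, all libraries). MCM7 is at the limit of 1.5-fold and fell under it in 8 of 17 alternatives, with adjusted P values from 3.27e-14 to 9.45e-07 over the 17.

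PRIM1 was at 24.7, 24.2 and 24.4 CPM with DMSO, 19.7, 21.8 and 21.1 CPM with niraparib and 26.8, 26.5 and 24.8 CPM with olaparib. Its niraparib libraries lay below DMSO where in WT cells they lay above, and the interaction was -0.78 ± 0.098 (adjusted P = 1.3e-07). RRM2, with values above, had an interaction of -0.72 ± 0.071 (adjusted P = 5.84e-10). POLD1 was at 36.8, 35.6 and 33.8 CPM with DMSO, 31.5, 32.3 and 34.5 CPM with niraparib and 31.4, 33.96 and 34.98 CPM with olaparib. RFC2 was at 81.9, 82.8 and 89.4 CPM with DMSO, 75.5, 76.4 and 79.9 CPM with niraparib and 73.1, 73.8 and 73.6 CPM with olaparib. RFC3 was at 55.5, 58.6 and 63.5 CPM with DMSO, 57.2, 57.2 and 54.01 CPM with niraparib and 56.4, 52.8 and 54.3 CPM with olaparib. No niraparib library of these 3 exceeded the highest DMSO library in PARP1 KO cells, and their interactions were -0.60, -0.60 and -0.63. RPA2 was at 32.6, 33.6 and 36.9 CPM with DMSO, 34.4, 36.5 and 30.8 CPM with niraparib and 31.6, 31.1 and 32.6 CPM with olaparib. CHAF1B was at 35.03, 35.8 and 32.2 CPM with DMSO, 38.97, 36.1 and 34.5 CPM with niraparib and 29.3, 33.5 and 32.8 CPM with olaparib. UHRF1 was at 35.1, 35.9 and 30.6 CPM with DMSO, 28.1, 29.96 and 35.8 CPM with niraparib and 28.7, 32.3 and 30.04 CPM with olaparib. In these the niraparib and DMSO libraries overlapped, and the interactions were -0.60, -0.61 and -0.70.

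ORC4 (0.28), RFC4 (0.24) and RPA1 (0.31) were the other members with a positive interaction that passed the test, and they were among those that fell in WT cells. ORC1 (-0.54) and ORC5 (-0.55) had a negative interaction that passed the test at less than 1.5-fold with all libraries in the fit. Members without a difference that passed the test included PCNA (-0.12), TYMS (-0.091), GMNN (-0.15), MCM6 (-0.20) and GINS1 (-0.062). POLA2, called with niraparib in WT cells, was at 11.3, 10.7 and 9.06 CPM with DMSO, 14.2, 10.6 and 12.1 CPM with niraparib and 11.2, 11.4 and 13.3 CPM with olaparib, and its interaction was -0.36 (adjusted P = 0.0778). Of the 20 G2/M genes, 15 had a positive interaction past 1.5-fold (75%, against 3.68% of all genes). All 20 had a positive interaction that passed the test (100%, against 10.4%), with a median of 1.14. Their summed level in PARP1 KO cells was 5886, 5854 and 6025 CPM with DMSO, 5813, 5437 and 5118 CPM with niraparib and 6470, 5950 and 5536 CPM with olaparib. Their part in the members' interaction was not tested. Without replicate 1 of WT DMSO, 36 members passed the test for the interaction with niraparib (DUT did not, adjusted P = 0.056) and 13 were past 1.5-fold. CDC7, MCM2, MCM7, RFC2, RFC3, RPA2 and CHAF1B then stood between -0.58 and -0.53, short of 1.5-fold, and ORC5 was past it at -0.61 (adjusted P = 0.00108).

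For olaparib the interaction passed the test and was negative in 28 members (53.8%), where 1.35% of all genes were, and positive in 0, where 0.912% were. Past 1.5-fold it was negative in ORC1, CDC6, CDT1, MCM10 and CDC7 (9.62%, against 0.381%) and positive in 0 (0.276% of all genes were), and the median was -0.30. ORC1 was at 13.1, 10.4 and 12.9 CPM with DMSO, 12.9, 13.9 and 12.97 CPM with niraparib and 14.9, 14.2 and 13.5 CPM with olaparib in PARP1 KO cells. Its olaparib libraries were above DMSO by a smaller margin than in WT cells, with an interaction of -0.67 ± 0.12 (adjusted P = 0.00117). CDT1 had -0.69 ± 0.081 (adjusted P = 1.67e-06), MCM10 -0.74 ± 0.096 (adjusted P = 1.03e-05), CDC7 -0.64 ± 0.15 (adjusted P = 0.0168) and CDC6 -0.59 ± 0.083 (adjusted P = 3.1e-05). All 6 helicase core genes were among the 28, from -0.50 for MCM2 to -0.30 for MCM3. The count fell to 16 members without replicate 1 of WT DMSO and to 14 without replicate 2 of WT olaparib, and 3 were past 1.5-fold without either of these, without replicate 1 of PARP1 KO olaparib or without replicate 3 of PARP1 KO DMSO. Without replicate 1 of WT DMSO the 3 were ORC1, CDT1 and MCM10, CDC6 stood at -0.53 and CDC7 at -0.56 (adjusted P = 0.0589), and MCM3, MCM5, MCM6, GINS3, PCNA, RFC3, PRIM1, POLE3, TK1, RRM2 and CHAF1A also no longer passed the test. Among the 20 G2/M genes the interaction with olaparib was above 0 in 18, where 51.5% of all genes were. It passed the test in 9 of them (45% of the list, against 0.912% of all genes), with a median of 0.25 over the list.

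**Figure D5:**
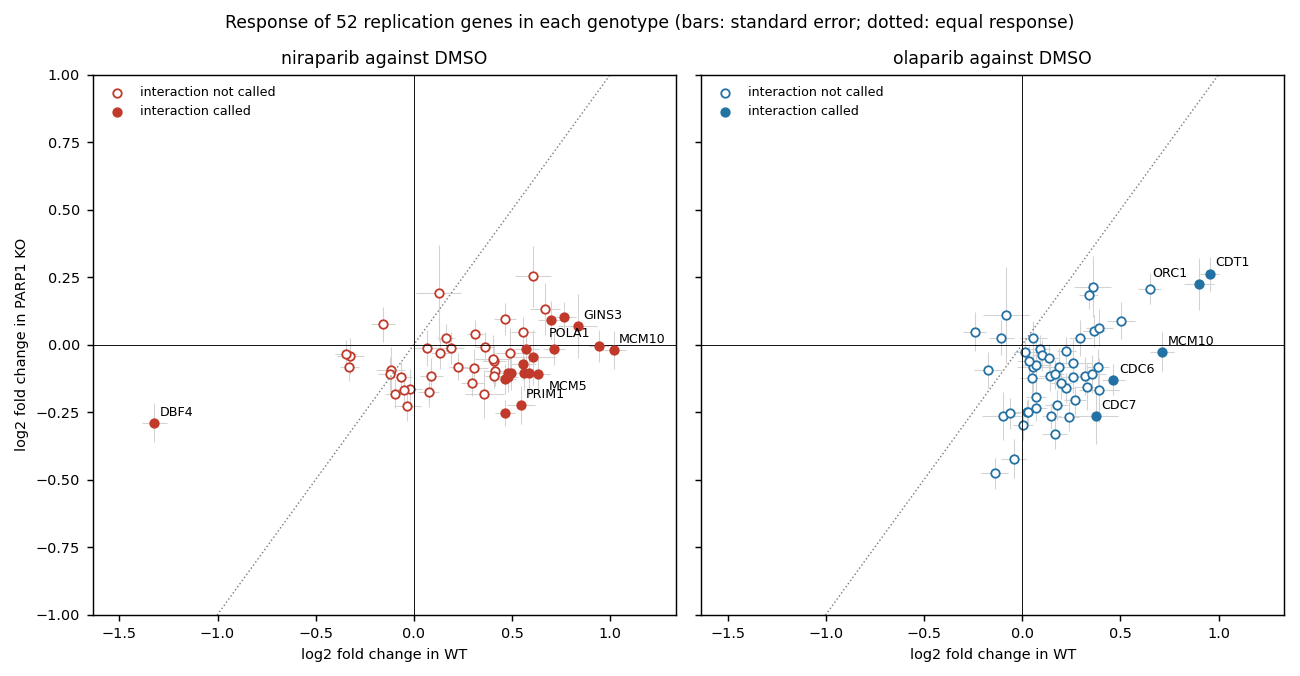
Log2 fold change against DMSO in WT cells (x axes) and in PARP1 KO cells (y axes) of the 52 genes, for niraparib (left) and olaparib (right). Points are genes, bars are standard errors, filled points have a called interaction (past the test at 0.05 and 1.5-fold) and the dotted line marks equal responses. With niraparib the points spread along the x axis, from -1.32 for DBF4 to 1.02 for MCM10, and stay between -0.29 and 0.25 on the y axis.

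Without drug, 13 members were higher in PARP1 KO than in WT cells (25%) and 0 lower, where 0.811% of all genes were higher and 0.584% lower, and none was past 1.5-fold (0.0608% and 0.0851% of all genes were). They were 5 of the 6 helicase core genes (all but MCM7), CDC6, MCM10, GINS2, GINS4, PCNA, RFC2, POLA1 and TK1, and the largest were MCM5 (0.47 ± 0.069, adjusted P = 0.00028) and MCM6 (0.42 ± 0.063, adjusted P = 0.000362). The median was 0.15, beside -0.0016 for all genes. This count depended on replicate 1 of WT DMSO: without it, MCM2, MCM5 and MCM6 passed the test and the other 10 did not, and the median was 0.12. Without replicate 1 of PARP1 KO DMSO, 7 passed it.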

How the data were processed

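Polyadenylated RNA of 18 T47D libraries was sequenced, and the authors deposited raw read counts per gene, 1 file per library. Per the file headers and the study's methods, the authors trimmed reads with Trimmomatic, aligned them to GRCh38 with STAR, marked duplicates with Picard and counted primary alignments over exons on the reverse strand with featureCounts 2.0.0 and Ensembl release 96. Reads that overlapped 2 genes of a strand were not assigned, which touches the exon bases of 5 members. The file names call the alignments deduplicated, and removing duplicates without molecular identifiers lowers high counts more than low ones. The labels differ from the study's methods in medium, extraction kit and RNA amount, and they do not say how the knockout line was made.

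Genes with more than 10 counts in total were fitted with edgeR 4.0.16 (quasi-likelihood F test, TMM, robust; R 4.3.3, limma 3.58.1), in 1 model of 3 groups for each genotype (9 libraries) and 1 model of 6 groups over all 18 libraries for PARP1 KO against WT and the interactions. P values were adjusted by Benjamini-Hochberg over all genes tested. A gene was called at an adjusted value below 0.05 and more than 1.5-fold. CPM used TMM library sizes, and values per kilobase used exon length from the reference annotation. The script was tested on simulated data.

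Members and lists were chosen with earlier results of these data known. Values are given for every member called in any comparison and for the largest change of each role, and values in every library for the 12 largest changes with niraparib in WT cells and for members called in an interaction. Libraries of POLD3, RFC4, RPA1, MCM6 and POLE, and of CHTF8 in the other lists, were added after their values were seen. The value of 1 gene of the other lists is not reported here. Promoters came from RefSeq (GRCh38.p14), with the first entry of each symbol used (13 members had more than 1).

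The replicate numbers of the titles did not pair the libraries: deviations from the group mean correlated over 9803 genes at -0.629 to 0.645 in the 18 same-numbered pairs within a genotype, above 0.1 in 6. Differently numbered pairs within a genotype correlated at -0.658 to 0.721. Replicate 1 of WT DMSO, replicate 2 of WT niraparib and replicate 3 of PARP1 KO niraparib correlated with each other at 0.673 to 0.722. The main fits held no term for such shared deviations, and their source was not tested. Alternatives were RLE size factors, filterByExpr, DESeq2 1.42.0, a block for replicate number, a fit without any filter, 1 fit of all 18 libraries, other thresholds and leaving out each library. Counts of members past the test under these alternatives were added after the data were seen.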

Additional observations from a re-analysis of the deposited data

Results flagged for a closer look

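The results given here are members whose response differed between the lines by the interaction test of edgeR over all 18 libraries, past 1.5-fold, as log2 of the response in PARP1 KO minus that in WT cells. For niraparib these were MCM10 (-1.04), POLA1 (-0.954), PRIM1 (-0.776), GINS3 (-0.774), MCM5 (-0.748), CDC6 (-0.736), RRM2 (-0.724), UHRF1 (-0.698), CDT1 (-0.674), GINS4 (-0.671), CDC7 (-0.664), RFC3 (-0.635), CHAF1B (-0.612), MCM2 (-0.605), POLD1 (-0.603), RPA2 (-0.597), RFC2 (-0.596) and MCM7 (-0.59) below 0 and DBF4 (1.03) above it. For olaparib these were MCM10 (-0.735), CDT1 (-0.688), ORC1 (-0.673), CDC7 (-0.636) and CDC6 (-0.591). CDC6, CDT1, MCM10 and CDC7 met both criteria for both drugs, and CDT1 and MCM10 alone did without replicate 1 of WT DMSO. Of 17 alternatives, the niraparib calls were lost in 8 for MCM7, 4 each for RFC2 and RPA2, 3 each for MCM2, CHAF1B and POLD1, 2 for RFC3, 1 for CDC7 and 0 for the others, and the olaparib calls in 8 for CDC6, 5 for CDC7 and 0 for the others. Both contrasts share the DMSO libraries of each line. The line and the genotype cannot be told apart.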

How the results depend on the processing

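All 44 calls of named members kept their direction under every alternative run. RLE size factors, filterByExpr and DESeq2 each took 2 to 4 of them under 1.5-fold, always among UHRF1 with niraparib in WT cells, RFC2 and MCM7 in the niraparib interaction and CDC6 in the olaparib interaction, which lay at that limit. With the adjusted P value alone, 41, 29 and 34 members passed in WT cells (niraparib, olaparib and niraparib against olaparib), 1, 16 and 9 in PARP1 KO cells, 13 between the lines with DMSO, and 37 and 28 in the niraparib and olaparib interactions. With an absolute log2 fold change above 1.5, 0 members were called in any comparison. The members past the test with niraparib in PARP1 KO cells numbered 3 with no filter on low counts, 2 with all 18 libraries in the fit and 0 with the replicate block, which changed no call of a named member and no other count of members by over 1.5 times. Leaving out 1 library at a time gave 8 to 14 members called with niraparib in WT cells, 13 to 21 in the niraparib interaction and 3 to 6 in the olaparib interaction. The members past the test then numbered 0 for niraparib and 10 to 16 for olaparib in PARP1 KO cells, 3 to 14 between the lines with DMSO and 14 to 30 in the olaparib interaction. Medians over the members ran from 0.363 to 0.435 for niraparib and from 0.128 to 0.195 for olaparib in WT cells, from -0.118 to -0.0591 for olaparib in PARP1 KO cells and from -0.509 to -0.384 in the niraparib interaction. With 3 libraries a group an exact test of a single gene cannot give a P value below 0.1, so calls rest on the spread shared across genes.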
